A study of Mus musculus with 24 samples.

Results

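CD45- cells of the ileum were compared between *Hoil1*-/- and *Hoil1*+/+ mice in which the interleukin 4 receptor alpha gene, *Il4ra*, was flanked by loxP sites but left intact because no Vil1cre was present. The comparison took the 6 libraries, of 24 in the series, that the labels give as CD45 negative and *Il4ra* flox/flox (f/f) without Cre. Libraries 1, 2 and 23 came from *Hoil1*-/- mice and libraries 6, 7 and 8 from *Hoil1*+/+ mice. The choice rested on the labels and not on any measured value. The mice were 9.4, 9.4 and 9.9 weeks old in the *Hoil1*-/- group and 10.3, 9.0 and 9.1 weeks old in the *Hoil1*+/+ group. RNA-Seq was done on sorted cells that the study prepared by adding part of the epithelial fraction back to the lamina propria cells, so the share of epithelium in a library reflects the preparation as well as the tissue. The *Hoil1* allele is a constitutive mutation present in every cell of the mouse, and the mutant can still make an N-terminal part of the protein. The other 6 CD45- libraries came from mice that also carried Vil1cre, which deletes *Il4ra* in the intestinal epithelium. Libraries 3, 4 and 5 were *Hoil1*-/-, at 9.6, 9.6 and 9.1 weeks of age. Libraries 9, 10 and 11 were *Hoil1*+/+, at 9.7, 9.7 and 9.0 weeks. These 6 libraries entered the fits to estimate the spread, and the *Hoil1* effect in f/f mice was also compared with theirs. Library 23 was left out by the authors, so the comparison was fitted with it left out (11 libraries) and with it included (12 libraries).

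HOIL1, the product of *Rbck1*, is a subunit of the linear ubiquitin chain assembly complex (LUBAC), which attaches linear ubiquitin chains to signaling proteins downstream of tumor necrosis factor and pattern recognition receptors and thereby shapes NF-κB activation and cell death. Tuft cells are rare chemosensory cells of the intestinal epithelium that sense luminal signals through a taste-like cascade ending in the channel TRPM5 and release IL-25 and leukotrienes. In type 2 inflammation, IL-13 from lymphoid cells acts on IL-4Rα in the epithelium, and tuft and goblet cells become more numerous. In RNA from bulk sorted cells, more tuft cells and more RNA per tuft cell cannot be told apart.

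The *Hoil1* genotype labels held in all 6 libraries. *Rbck1* (ENSMUSG00000027466.15, chromosome 2, minus strand, 152316334 to 152332653, GRCm38) was at 3.21, 7.94 and 0 CPM (read counts per mega, M, of scaled library counts) in libraries 1, 2 and 23 and at 104, 122 and 98.8 CPM in libraries 6, 7 and 8. *Il4ra* was at 67.8, 90.0 and 77.1 CPM in the *Hoil1*-/- and 63.7, 173 and 89.9 CPM in the *Hoil1*+/+ libraries, and its groups overlapped. The libraries of Vil1cre mice were at 51.4 to 145 CPM of *Il4ra*, so this level could not check the label of no Cre. *Ptprc*, which encodes CD45, was at 11.8, 17.9 and 4.54 CPM in libraries 1, 2 and 23 and at 2.85, 0 and 0 CPM in libraries 6, 7 and 8, so this leukocyte gene was higher in every *Hoil1*-/- than in every *Hoil1*+/+ library (unadjusted p = 0.0648 in edgeR's quasi-likelihood test without library 23 and 0.0783 with it).

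The libraries of the 2 genotypes differed in more than the *Hoil1* allele. Total counts on genes were 12.1, 30.1 and 7.44 M in libraries 1, 2 and 23 and 6.97, 18.5 and 23.2 M in libraries 6, 7 and 8, so 3 counts corresponded to between 0.107 and 0.427 CPM. The summed level of 13 pan-epithelial genes, among them the adhesion molecule *Epcam* and the keratins *Krt8* and *Krt18*, was 18483 and 16459 CPM in libraries 1 and 2, 5898 CPM in library 23, and 11052, 3118 and 5124 CPM in libraries 6, 7 and 8. Libraries 1 and 2 thus held the most epithelial RNA of the 6. Libraries 1 and 2 had no *Xist* count and had counts of all 4 Y-linked genes examined, as did libraries 6, 7 and 8, and library 23 had 201 CPM of *Xist* and no count of the Y-linked genes, so library 23 was the only female sample among the 6. The *Hoil1*-/- libraries also held fewer genes: at an equal depth of 6 M counts, 13246, 14540 and 12916 genes would be detected in libraries 1, 2 and 23 and 15520, 16040 and 15310 in libraries 6, 7 and 8. Mitochondrial genes took 17.4% of the counts in library 23, 12.3% in library 6 and 6.98% to 8.85% in the other 4. The part of these differences in the results below was not tested, except where a value is given.

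**Figure D1:**
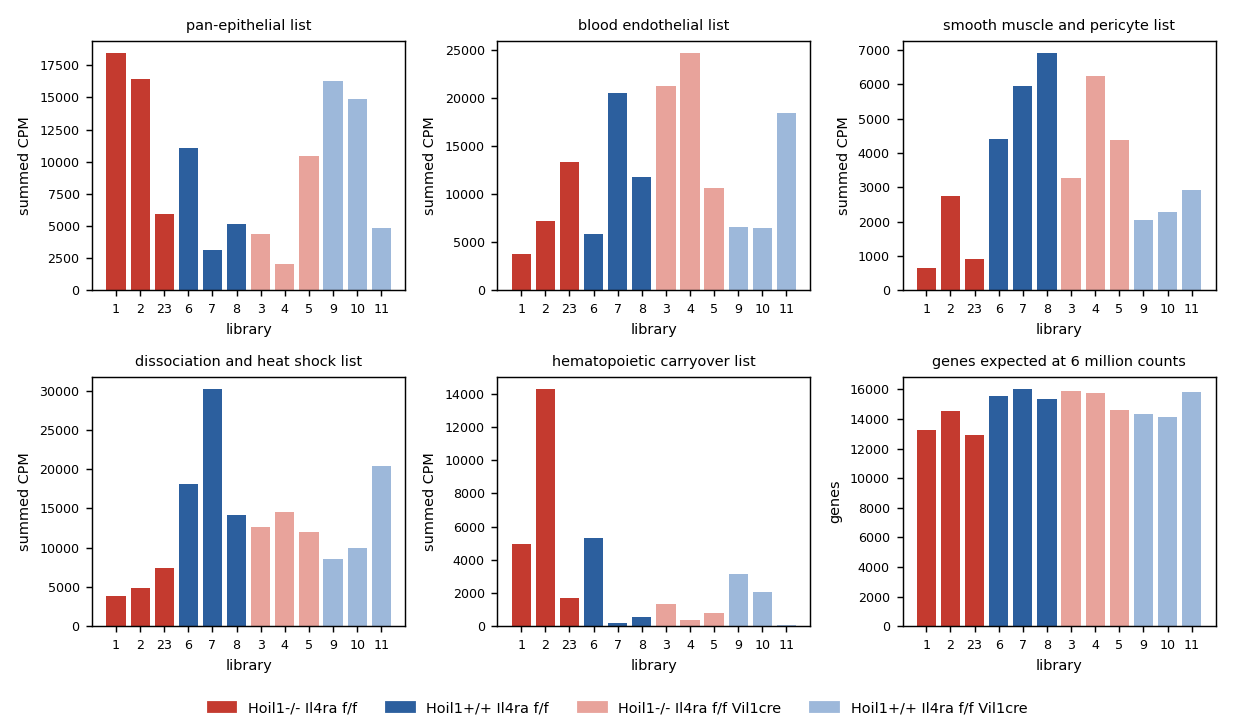
Summed CPM of 5 lists of marker genes and the number of genes expected at 6 M counts (y axes, linear, from 0) in each of the 12 CD45- libraries (x axes, library numbers), with bars colored by genotype. Libraries 1 and 2 have the highest pan-epithelial sums, at 18483 and 16459 CPM, and all 3 *Hoil1*-/- f/f libraries have lower dissociation and heat shock sums than the other 9 libraries.

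With library 23 left out, the quasi-likelihood test of edgeR covered 16453 genes. Of these, 5 genes (0.0304%) were higher and 1 gene (0.00608%) was lower in *Hoil1*-/- f/f cells at an adjusted p under 0.05. The lower gene was *Rbck1* itself, whose log2 fold change was -4.26 with a standard error (SE) of 0.50 (adjusted p = 0.0188). With library 23 included it was -4.80 (SE 0.92, adjusted p = 0.184). The higher genes were *Trpm5*, *Lrmp*, *Avil*, *Egln3* and *Ptpn18*.

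*Trpm5* (ENSMUSG00000009246.14, chromosome 7, minus strand, 143069153 to 143094642) encodes the calcium-activated cation channel at the end of taste transduction. It was at 237 and 252 CPM in libraries 1 and 2, 3.07 CPM in library 23, and 9.67, 6.77 and 14 CPM in libraries 6, 7 and 8. Libraries 1 and 2 therefore stood far above all *Hoil1*+/+ libraries and library 23 stood below all of them. Its log2 fold change was 4.58 (SE 0.44, adjusted p = 0.00756) without library 23 and 4.01 (SE 1.05, adjusted p = 0.324) with it.

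*Lrmp* (ENSMUSG00000030263.13, chromosome 6, plus strand, 145115653 to 145174934), a membrane protein of lymphoid and tuft cells, was at 71.9 and 122 CPM in libraries 1 and 2, 9.74 CPM in library 23, and 1.99, 2.76 and 1.71 CPM in libraries 6, 7 and 8. All 3 *Hoil1*-/- libraries lay above all 3 *Hoil1*+/+ libraries, and library 23 was the lowest of them. The log2 fold change was 5.48 (SE 0.58, adjusted p = 0.0107) without library 23 and 4.97 (SE 0.84, adjusted p = 0.178) with it.

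*Avil* (ENSMUSG00000025432.11, chromosome 10, plus strand, 127000709 to 127020994) encodes advillin, an actin-binding protein of the tuft cell brush. It was at 157 and 222 CPM in libraries 1 and 2, 8.14 CPM in library 23, and 4.69, 7.67 and 18.2 CPM in libraries 6, 7 and 8, so library 23 lay within the *Hoil1*+/+ range. The log2 fold change was 4.20 (SE 0.54, adjusted p = 0.0336) without library 23 and 3.65 (SE 0.91, adjusted p = 0.302) with it.

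The other 2 genes that rose were not members of the tuft cell lists used here. *Egln3* (ENSMUSG00000035105.5, chromosome 12, minus strand, 54178981 to 54203860) encodes a prolyl hydroxylase that marks hypoxia-inducible factors for degradation. It was at 56.1 and 58.7 CPM in libraries 1 and 2, 13.6 CPM in library 23, and 6.83, 8.88 and 5.24 CPM in libraries 6, 7 and 8, which did not overlap. Its log2 fold change was 3.04 (SE 0.40, adjusted p = 0.0336) without library 23 and 2.62 (SE 0.54, adjusted p = 0.184) with it. *Ptpn18* (ENSMUSG00000026126.15, chromosome 1, plus strand, 34459762 to 34475733), a protein tyrosine phosphatase, was at 125 and 222 CPM in libraries 1 and 2, 25.9 CPM in library 23, and 36.7, 30.1 and 28.8 CPM in libraries 6, 7 and 8. Its log2 fold change was 2.44 (SE 0.34, adjusted p = 0.0495) without library 23, just inside the threshold, and 1.97 (SE 0.57, adjusted p = 0.379) with it, and library 23 was below the *Hoil1*+/+ range.

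Most of these calls were lost when a library was left out or library 23 was added. With all 12 libraries the test covered 15332 genes, and no gene passed with edgeR's quasi-likelihood test. *Rbck1*, the mutated gene, was among those that did not pass, although its groups did not overlap. At an unadjusted p under 0.05, 396 genes (2.58%) were higher and 992 (6.47%) lower. DESeq2 called 332 genes. With library 23 left out, leaving out library 6 or library 7 as well, or fitting only the f/f libraries, left no gene past the threshold. Leaving out library 8 left *Trpm5* and *Avil*. Leaving out library 1 or library 2 left a single *Hoil1*-/- f/f library, so those fits are given by effect size only. Over the 5 fits without library 1, 2, 6, 7 or 8, the log2 fold change of *Trpm5* lay between 4.36 and 4.90. That of *Lrmp* lay between 5.06 and 5.81, and with only the f/f libraries they were 4.58 and 5.48.

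**Figure D2:**
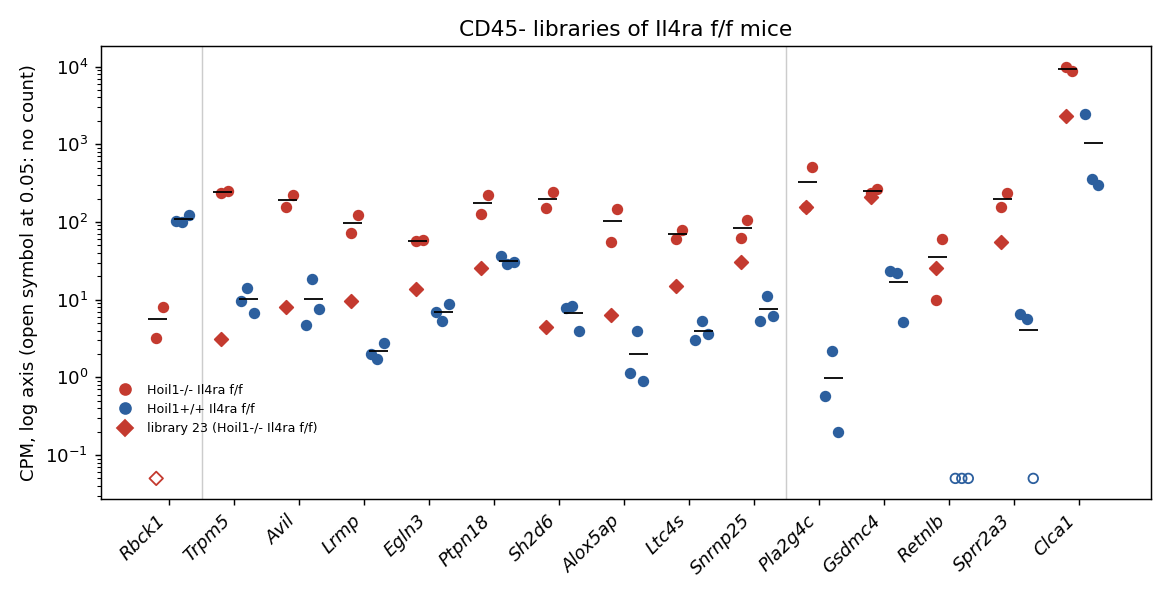
CPM on a log axis (y) of 15 genes (x) in the 6 CD45- libraries of *Il4ra* f/f mice, with red for *Hoil1*-/- (diamonds, library 23), blue for *Hoil1*+/+, open symbols for no count, and black lines for the means of libraries 1 and 2 and of libraries 6, 7 and 8. For *Trpm5*, library 23 at 3.07 CPM lies below all *Hoil1*+/+ libraries, whereas for *Pla2g4c* it lies with libraries 1 and 2, at 154 CPM.

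The 250 bases upstream of the RefSeq start of 4 of the 5 genes that rose are shown to give the sequence in front of genes that were high in the same 2 libraries (RefSeq, GRCm38.p6, each on the strand of its gene). The windows are chr7:143094643-143094892 for *Trpm5*, chr10:127000459-127000708 for *Avil*, chr12:54203875-54204124 for *Egln3* and chr1:34459496-34459745 for *Ptpn18*. Capitals mark matches to the octamer ATGCAAAT of POU factors, the class of the tuft cell regulator POU2F3, to the palindrome bound by STAT6, TTC and GAA with 4 bases between them, or to the hypoxia response core ACGTG, each searched on both strands.
Trpm5: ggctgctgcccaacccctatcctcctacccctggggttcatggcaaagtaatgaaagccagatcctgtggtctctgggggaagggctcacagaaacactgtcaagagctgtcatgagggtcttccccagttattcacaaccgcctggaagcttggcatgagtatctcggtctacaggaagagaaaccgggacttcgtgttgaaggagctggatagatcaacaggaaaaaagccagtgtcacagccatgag
Avil: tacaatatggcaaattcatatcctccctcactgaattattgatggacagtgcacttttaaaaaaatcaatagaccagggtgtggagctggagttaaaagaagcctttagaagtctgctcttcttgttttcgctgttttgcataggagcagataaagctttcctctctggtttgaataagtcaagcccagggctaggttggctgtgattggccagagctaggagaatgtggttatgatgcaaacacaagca
Egln3: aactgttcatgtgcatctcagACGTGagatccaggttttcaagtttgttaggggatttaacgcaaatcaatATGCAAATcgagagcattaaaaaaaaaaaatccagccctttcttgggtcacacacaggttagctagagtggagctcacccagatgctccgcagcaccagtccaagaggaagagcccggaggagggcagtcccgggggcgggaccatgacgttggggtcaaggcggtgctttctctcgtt
Ptpn18: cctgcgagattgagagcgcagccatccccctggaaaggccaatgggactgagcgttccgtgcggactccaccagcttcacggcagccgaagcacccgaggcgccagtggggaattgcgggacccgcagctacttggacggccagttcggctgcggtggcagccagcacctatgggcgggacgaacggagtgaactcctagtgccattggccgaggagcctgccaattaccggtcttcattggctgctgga
Only the *Egln3* window of these 4 held a match, an octamer starting 179 bases and a hypoxia response core starting 229 bases before the start site. Among all 32851 promoter windows of this length, 1.6% held the octamer, 5.85% the STAT6 palindrome and 16.6% the hypoxia response core. A match of letters is a description of the window and not a measured binding site.

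Tuft cell genes as a group were high in libraries 1 and 2. Of the 23 genes in a list of tuft cell identity genes, 22 were tested without library 23, and 2 of them, *Lrmp* and *Avil*, passed the adjusted threshold. At an unadjusted p under 0.05, 18 of the 22 were higher and none lower, against 5.26% of all genes tested higher and 7.88% lower. The 18 include *Gfi1b*, which passed the count filter only through libraries 1 and 2, where it was high. Its direction was thus fixed, and it was not tested with library 23 included. The median log2 fold change of the list was 3.77, and that of all genes tested was -0.17. With library 23 included, 12 of 21 were higher, against 2.58% of all genes, the median was 3.07, and the median of all genes was -0.07. The list was written with earlier results of these data known, so its direction is not independent evidence.

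Among the regulators on this list, *Pou2f3*, the transcription factor that specifies tuft cells, was at 18.6 and 27.0 CPM in libraries 1 and 2, 6.01 CPM in library 23, and 2.85, 0.401 and 6.13 CPM in libraries 6, 7 and 8. *Spib*, an Ets factor of tuft and M cells, was at 31.7, 81.4 and 18.6 CPM in libraries 1, 2 and 23, above the 2.56, 4.36 and 13.3 CPM of the *Hoil1*+/+ libraries. *Gfi1b*, a transcriptional repressor, was at 5.59 and 19 CPM in libraries 1 and 2, at 0.150 CPM in library 7 and without a count in the other 3 libraries. Libraries 1 and 2 were the highest of the 6 for these 3 regulators, and library 23 was above the *Hoil1*+/+ range only for *Spib*. Of other transcription factors on the list, *Hmx2* was also highest in libraries 1 and 2, but *Hmx3* was not. *Hmx3* was at 0, 5.61 and 1.87 CPM in libraries 1, 2 and 23 and at 0.285, 0.201 and 4.06 CPM in libraries 6, 7 and 8.

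Of the signaling proteins of the list, *Sh2d6*, *Vav1*, *Fyb* and *Ptpn6* were likewise highest in libraries 1 and 2. *Sh2d6*, an SH2-domain adaptor, was at 151 and 246 CPM in libraries 1 and 2 and 4.40 CPM in library 23, against 7.82, 3.96 and 8.34 CPM in libraries 6, 7 and 8 (log2 fold change 4.89, SE 0.72, adjusted p = 0.0540 without library 23). *Vav1*, a guanine nucleotide exchange factor, was at 49.1, 93.5 and 8.54 CPM in libraries 1, 2 and 23 and at 10.7, 2.71 and 4.81 CPM in libraries 6, 7 and 8. Library 23 lay within the *Hoil1*+/+ range for both *Sh2d6* and *Vav1*. *Fyb* was at 34.4, 38.5 and 5.47 CPM in libraries 1, 2 and 23 and between 1.25 and 3.98 CPM in the *Hoil1*+/+ libraries, and *Ptpn6*, which encodes the phosphatase SHP-1, was at 109 and 117 CPM in libraries 1 and 2, at 0 in library 23 and between 3.76 and 14.9 CPM in the *Hoil1*+/+ libraries.

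The remaining identity genes covered mainly surface, secretory and structural products, and *Hmx2* and *Hmx3* are included again here. *Dclk1*, the kinase widely used to mark tuft cells, was at 71.3, 106 and 26.8 CPM in libraries 1, 2 and 23 and at 14.9, 10.4 and 26.2 CPM in libraries 6, 7 and 8, so all 3 *Hoil1*-/- libraries lay above the *Hoil1*+/+ range, and the margin of library 23 was small. *Il25*, the cytokine that tuft cells release, had counts only in library 2, at 2.40 CPM, and was too low to be tested. *Il17rb*, a receptor chain for IL-25, was at 24.5 and 14.9 CPM in libraries 1 and 2 and at or below 0.301 CPM in the other 4. *Siglecf*, *Sh2d7*, *Chat*, which encodes choline acetyltransferase, *Hmx2* and *Ly6g6f* were at 0 in library 23 and at 12.6 CPM or more in libraries 1 and 2. *Rgs13* was at 23.1, 74.4 and 20.3 CPM in libraries 1, 2 and 23, above the 4.41, 2.21 and 11.9 CPM of the *Hoil1*+/+ libraries, and *Cd24a* was at 523, 800 and 349 CPM against 343, 176 and 181 CPM. *Bmx*, *Kctd12* and *Hmx3* had unadjusted p of 0.612, 0.432 and 0.745, and their groups overlapped.

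**Figure D3:**
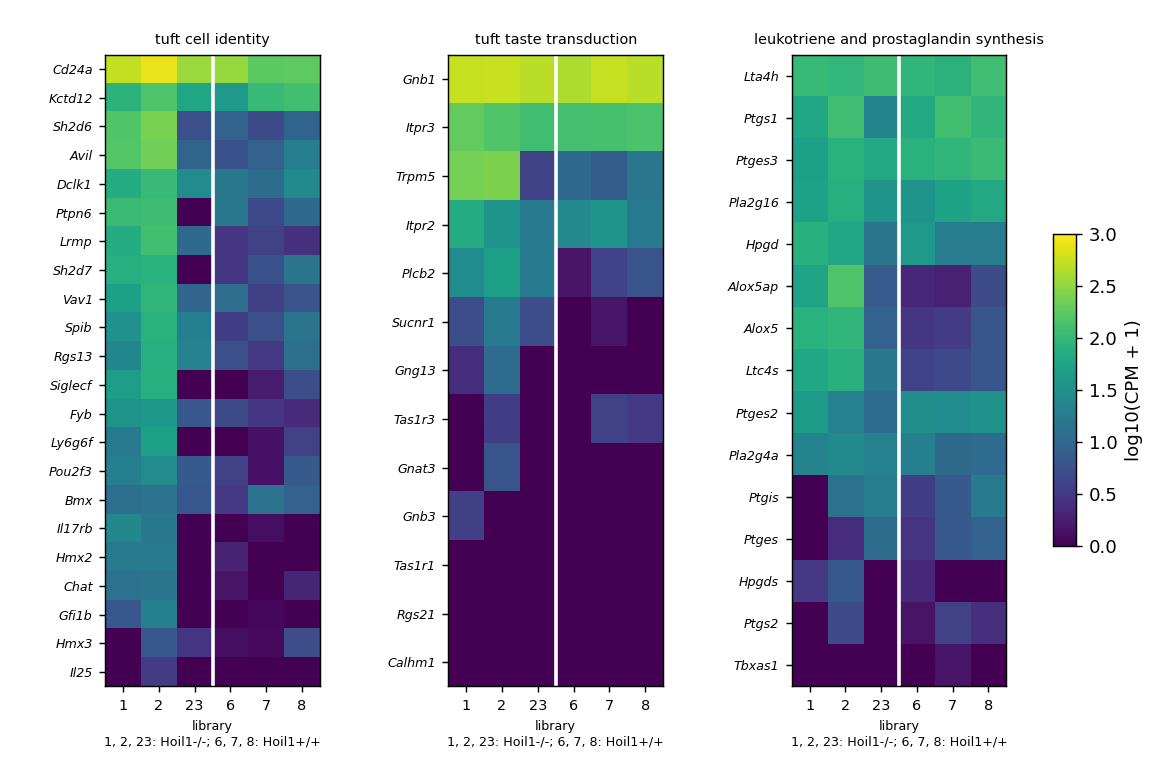
Levels, as log10(CPM + 1) on the color scale, of the members reported here (y) of the tuft cell identity, tuft taste transduction and eicosanoid lists in the 6 CD45- f/f libraries (x), with a white line between *Hoil1*-/- libraries 1, 2 and 23 and *Hoil1*+/+ libraries 6, 7 and 8. Most identity genes are bright in libraries 1 and 2, for example *Sh2d6* at 151 and 246 CPM, and dark in library 23, where *Sh2d6* is at 4.40 CPM.

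Of 13 taste transduction genes, 9 were tested without library 23, of which 1, *Trpm5*, passed the adjusted threshold and 5 were higher and none lower at an unadjusted p under 0.05 (median log2 fold change 3.71, against -0.17 for all genes, of which 5.26% were higher and 7.88% lower). With library 23 included, 4 of 8 were higher, against 2.58% of all genes, and the median was 2.03. *Plcb2*, the phospholipase C upstream of TRPM5, was at 27.9, 48.5 and 16.3 CPM in libraries 1, 2 and 23 and at 0.427, 3.06 and 5.09 CPM in libraries 6, 7 and 8, with no overlap. The succinate receptor *Sucnr1* was at 4.21, 16.2 and 4.14 CPM in the *Hoil1*-/- libraries and at 0, 0.502 and 0 CPM in the *Hoil1*+/+ libraries, again with no overlap. *Gng13*, a G protein gamma subunit of taste cells, was at 1.47 and 10.1 CPM in libraries 1 and 2 and had no count in the other 4, and *Gnat3*, which encodes gustducin, had counts only in library 2, at 5.06 CPM. *Gnb1* and *Itpr3*, which many cell types express, were at 423 to 563 CPM and 121 to 187 CPM in the 6 libraries, with unadjusted p of 0.497 and 0.365. *Itpr2* was at 70.0, 34.4 and 16 CPM in the *Hoil1*-/- and 25.0, 34.6 and 16.6 CPM in the *Hoil1*+/+ libraries, and *Tas1r3* was at 2.81 CPM or lower in all 6. *Gnb3*, *Tas1r1*, *Rgs21* and *Calhm1* were not tested for want of counts.

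Of the 15 genes of leukotriene and prostaglandin synthesis, the 3 that make cysteinyl leukotrienes had the smallest p. *Alox5*, which encodes 5-lipoxygenase, was at 81.8, 94.1 and 7.87 CPM in libraries 1, 2 and 23 and at 1.99, 2.41 and 5.42 CPM in libraries 6, 7 and 8 (log2 fold change 4.72, SE 1.03, adjusted p = 0.153 without library 23). Its activating protein *Alox5ap* was at 54.8, 148 and 6.27 CPM against 1.14, 0.903 and 3.92 CPM (log2 fold change 5.62, SE 1.04, adjusted p = 0.113). *Ltc4s*, the leukotriene C4 synthase, was at 60.9, 78.2 and 14.8 CPM against 2.99, 3.66 and 5.34 CPM (log2 fold change 4.11, SE 0.69, adjusted p = 0.0836). All 3 genes separated the genotypes without overlap, library 23 included, and none passed the adjusted threshold. With all libraries, 4 of 14 tested genes of the list were higher without overlap, against 4.45% of all genes. *Hpgd*, which degrades prostaglandins, was the fourth gene with an unadjusted p under 0.05 and did so only without library 23, where it was at 13.3 CPM. The other 11 had unadjusted p above 0.05, among them the cyclooxygenase *Ptgs1*, at 62.3, 121 and 21.8 CPM against 67.1, 121 and 92.1 CPM, and the median log2 fold change of the list was 0.29, and 0.18 with library 23 included. *Hpgds*, the prostaglandin D synthase shared by tuft cells and several leukocytes, was at 2.11 and 5.65 CPM in libraries 1 and 2, 1.14 CPM in library 6 and 0 in the other 3. The median of the list was thus near that of all genes. At an unadjusted p under 0.05, 4 of 15 were higher without library 23 and 3 of 14 with it, against 5.26% and 2.58% of all genes. The high members with the smallest p were those of the leukotriene branch.

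*Vav1*, *Fyb*, *Ptpn6*, *Alox5* and *Alox5ap* are also expressed by leukocytes, and their part in these values was not tested. The summed level of 29 hematopoietic genes was 4947, 14293 and 1728 CPM in libraries 1, 2 and 23 and 5306, 213 and 584 CPM in libraries 6, 7 and 8, most of it from the immunoglobulin genes *Igha* and *Igkc*. The levels of *Ptprc*, given above, were also higher in all 3 *Hoil1*-/- libraries. Of the 22 tested hematopoietic genes, 2 were higher and 1 lower at an unadjusted p under 0.05 without library 23. The shares of all genes were 5.26% and 7.88%, and the median of the list was 1.77. In that fit 17 of the 22 had a log2 fold change above 0. Without overlap, 8 were higher and 1 lower, against 15% and 19.2% of all genes. With library 23 included, 19 of 21 were above 0. Then 3 were higher and 1 lower without overlap, against 4.45% and 10.7% of all genes. The mast cell genes *Cpa3* and *Mcpt2* and the T and B cell genes *Cd8a*, *Trbc2* and *Ms4a1* were at 0 in all 6 libraries, *Cd3e* was at 0 in 5, and the macrophage gene *Csf1r* was at 4.41 CPM or lower. *Kit*, which tuft, mast and other cells express, was at 80.1, 73.2 and 41.0 CPM in libraries 1, 2 and 23 and at 48.4, 9.73 and 17.6 CPM in libraries 6, 7 and 8.

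Because libraries 1 and 2 held more epithelial RNA, tuft cell genes were also set against it. Relative to 1000 CPM of the pan-epithelial list, *Trpm5* was at 12.8 and 15.3 CPM in libraries 1 and 2, 0.520 CPM in library 23, and 0.875, 2.17 and 2.74 CPM in libraries 6, 7 and 8. *Lrmp* was at 3.89, 7.39 and 1.65 CPM in libraries 1, 2 and 23 and at 0.180, 0.885 and 0.334 CPM in libraries 6, 7 and 8 on the same scale, and *Avil* was at 8.5 and 13.5 CPM in libraries 1 and 2 and at 3.55 CPM or lower in the other 4. Libraries 9 and 10, from *Hoil1*+/+ mice with Vil1cre, had pan-epithelial sums of 16286 and 14869 CPM, close to those of libraries 1 and 2, and had 17.2 and 10.7 CPM of *Trpm5*. Libraries 9 and 10 were female, with 164 and 261 CPM of *Xist* and no count of the Y-linked genes, whereas libraries 1 and 2 were male. The part of sex in this comparison was not tested. With library sizes set to the pan-epithelial counts, which shifted the median log2 fold change of all genes to -1.98, that of *Trpm5* was 2.86, that of *Lrmp* 3.60 and that of *Avil* 2.36 without library 23, and each had an adjusted p of 0.211. *Egln3* and *Ptpn18* had log2 fold changes of 1.14 and 0.71 on that scale, and their ranges per epithelial CPM overlapped between libraries 1 and 2 and the *Hoil1*+/+ libraries for *Ptpn18* but not for *Egln3*.

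**Figure D4:**
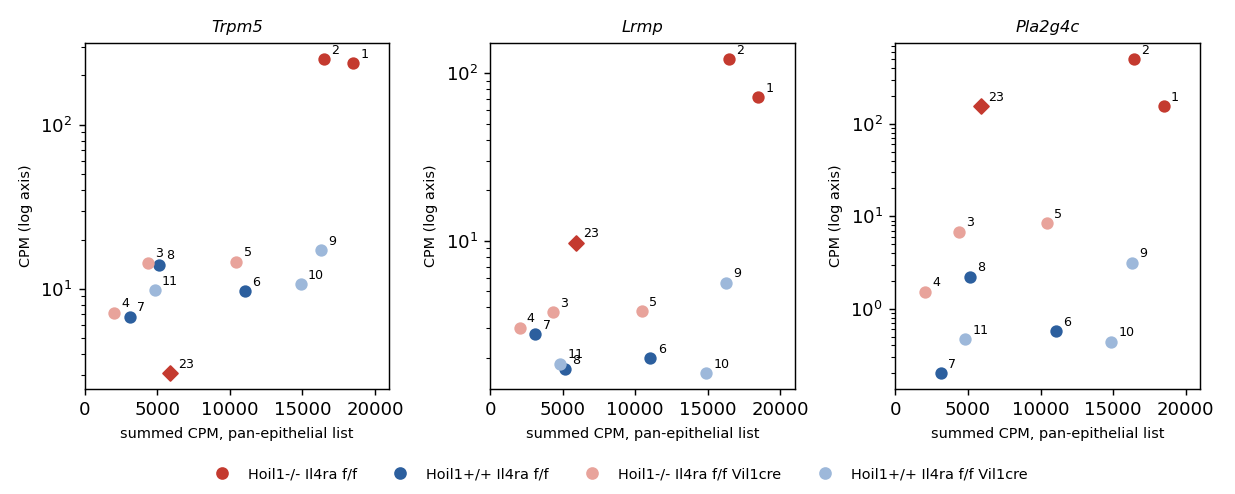
CPM of *Trpm5*, *Lrmp* and *Pla2g4c* (y, log axes) against the summed CPM of the pan-epithelial list (x, linear) in the 12 CD45- libraries, labeled by library number and colored by genotype, with library 23 as a diamond. Libraries 9 and 10 lie near libraries 1 and 2 on the x axis but at 17.2 and 10.7 CPM of *Trpm5*. Library 23 lies above all *Hoil1*+/+ libraries for *Pla2g4c* and below all of them for *Trpm5*.

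Further genes were picked by smallest p with all libraries among those whose f/f groups did not overlap. Their separation was therefore fixed by the choice and is not evidence. With all libraries, 683 of the 15332 genes tested (4.45%) were higher in all 3 *Hoil1*-/- than in all 3 *Hoil1*+/+ f/f libraries and 1638 (10.7%) were lower. Among the former, *Pla2g4c* (ENSMUSG00000033847.15, chromosome 7, plus strand, 13324655 to 13360672), a cytosolic phospholipase A2, had the smallest p. It was at 154, 503 and 154 CPM in libraries 1, 2 and 23 and at 0.569, 0.201 and 2.21 CPM in libraries 6, 7 and 8. Its log2 fold change was 7.99 (SE 1.20, adjusted p = 0.178) with all libraries and 8.26 (SE 1.23, adjusted p = 0.0540) without library 23. Relative to 1000 CPM of the pan-epithelial list, it was at 8.35, 30.6 and 26.2 CPM in the *Hoil1*-/- libraries and at 0.431 CPM or lower in the *Hoil1*+/+ libraries.

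*Retnlb*, which encodes resistin-like molecule beta, a goblet cell protein of type 2 immunity, was at 9.89, 60.8 and 25.2 CPM in libraries 1, 2 and 23. It had no count in any *Hoil1*+/+ f/f library. The mean of the 3 *Hoil1*-/- libraries, 32.0 CPM, was 74.9-fold the highest 3-count floor of a *Hoil1*+/+ library (adjusted p = 0.285 with all libraries in edgeR's quasi-likelihood test). *Gsdmc4*, a member of the gasdermin C cluster, was at 236, 263 and 208 CPM in the *Hoil1*-/- and 23, 5.22 and 22.3 CPM in the *Hoil1*+/+ libraries (log2 fold change 3.81, SE 0.89, adjusted p = 0.288 with all libraries). In *Retnlb* and *Gsdmc4* library 23 was close to libraries 1 and 2, as it was in *Sucnr1* and *Rgs13*, whereas in *Trpm5*, *Avil* and *Sh2d6* it was not. Gasdermin C genes are similar in sequence, so the share of reads on each copy is uncertain.

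The other genes that separated the f/f groups without overlap and had the smallest p included *Snrnp25*, a protein of the minor spliceosome, at 62.9, 106 and 30.6 CPM against 5.26, 6.22 and 11 CPM. The galactokinase *Galk1* was at 42.9, 59.8 and 42.7 CPM against 16.5, 20.0 and 20.7 CPM, and the lactate transporter *Slc16a3* was at 55.7, 70.6 and 22.6 CPM against 12.5, 14.4 and 11.2 CPM. On pan-epithelial library sizes the log2 fold change of *Galk1* without library 23 was -0.42, against 1.43 with TMM scaling, so its direction depended on the scaling. *Ighv1-71*, an immunoglobulin variable gene of plasma cells, was at 10.9, 5.17 and 53.0 CPM in the *Hoil1*-/- libraries and had no count in the *Hoil1*+/+ libraries. *Matk*, a Csk-related kinase, and *Limd2* were high only in libraries 1 and 2 of the 6. *Matk* was at 192 and 186 CPM in libraries 1 and 2, 0 in library 23 and 2.46 to 6.69 CPM in libraries 6, 7 and 8, and *Limd2* was at 58.3, 69.5 and 2.80 CPM against 3.98, 7.47 and 10.5 CPM.

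The goblet cell list had a median log2 fold change of 1.32 without library 23, and 1.00 with it, and in both fits 3 of 19 tested genes were higher at an unadjusted p under 0.05, against 5.26% and 2.58% of all genes, none of them past the adjusted threshold. *Clca1*, a goblet cell metalloprotease released with mucus, was at 10009, 8791 and 2311 CPM in libraries 1, 2 and 23 and at 2484, 297 and 354 CPM in libraries 6, 7 and 8. The mucus genes *Muc2*, *Fcgbp* and *Zg16* overlapped between the groups. Relative to 1000 CPM of the pan-epithelial list, *Clca1* was at 542, 534 and 392 CPM in the *Hoil1*-/- and 225, 95.1 and 69.0 CPM in the *Hoil1*+/+ libraries, with no overlap. On pan-epithelial library sizes the median of the list was 0.04, against -1.98 for all genes.

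Of 15 Paneth cell and antimicrobial genes, 5 were higher and none lower at an unadjusted p under 0.05 both without and with library 23, against 5.26% and 2.58% of all genes higher, and none passed the adjusted threshold (median log2 fold change 1.13 and 0.96). The following were chosen after their values were seen. They were the oxidase *Duox2* and its maturation factor *Duoxa2* and 3 small proline-rich genes. *Duox2* was at 593, 654 and 135 CPM in libraries 1, 2 and 23 and at 104, 28.3 and 70.5 CPM in libraries 6, 7 and 8, and *Sprr2a3* was at 157, 235 and 54.7 CPM against 6.54, 0 and 5.66 CPM. The *Sprr2a* copies are near-identical, so their separate values are uncertain. The most abundant members did not show this pattern, since *Lyz1*, the Paneth cell lysozyme, was at 1150, 1633 and 871 CPM against 11545, 1247 and 668 CPM, and *Reg3b* and *Reg3g* overlapped between the groups.

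Enterocyte genes differed widely between libraries of the same genotype. Of 29 absorption and brush border genes, 13 had a higher level at an unadjusted p under 0.05 without library 23 and 2 with it, against 5.26% and 2.58% of all genes, and none passed the adjusted threshold (median 2.38 and 1.87). The summed level of the list was 55096 and 38402 CPM in libraries 1 and 2, 3133 CPM in library 23, 21514 CPM in library 6 and 2494 and 3255 CPM in libraries 7 and 8. The apolipoprotein *Apoa1* was at 17797 and 13072 CPM in libraries 1 and 2, 752 CPM in library 23 and 9247, 476 and 901 CPM in libraries 6, 7 and 8. Library 23 thus lay near libraries 7 and 8 for this list while differing from them in *Pla2g4c* and *Retnlb*. The lists of stem cell, proliferation and enteroendocrine genes had medians of -0.09, 0.04 and 0.13. At an unadjusted p under 0.05 without library 23, none of their members was higher. In that order, 0 of 18, 1 of 24 and 2 of 18 were lower, against 7.88% of all genes.

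Of the genes lower in *Hoil1*-/- f/f cells, none other than *Rbck1* passed the adjusted threshold in edgeR's quasi-likelihood test. Many of those with the smallest p had no count in the *Hoil1*-/- libraries. Of the 1296 genes lower at an unadjusted p under 0.05 without library 23, 400 (30.9%) were at 0 in both libraries 1 and 2. Of the 992 with all libraries, 415 (41.8%) were at 0 in all 3. Among all genes tested, 1764 of 16453 were at 0 in both libraries 1 and 2, and 796 of 15332 in all 3. Of the genes higher, 80 of 865 without library 23 and 50 of 396 with it were at 0 in all *Hoil1*+/+ f/f libraries. *Rpgrip1l*, a protein of the ciliary transition zone, was at 3.41, 5.52 and 3.42 CPM in libraries 6, 7 and 8 and at 0 in all *Hoil1*-/- f/f libraries. Its *Hoil1*+/+ mean was 10.3-fold the highest 3-count floor of the *Hoil1*-/- libraries. *Zmynd15*, *Klhl6*, *Frs3*, *Kremen2*, *Fmod* and *1110051M20Rik* had the same pattern, with *Hoil1*+/+ means 11.3-fold to 18-fold that floor. *Arhgap44*, *Kcnk2*, *Fut10*, *Rnf165* and *Aasdh* were at 0 in libraries 1 and 2 and at 3.34 to 14.3 CPM in library 23.

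The *Hoil1*-/- f/f libraries also had fewer genes at equal depth, as given above, and the part of this in the zeros was not tested. Adding the number of genes detected to the model, an alternative chosen after seeing the data, left no gene past the threshold in edgeR's quasi-likelihood test, with 810 genes at an unadjusted p under 0.05 without library 23, and *Trpm5* and *Lrmp* then had log2 fold changes of 4.14 and 5.45 (adjusted p = 0.090 for both).

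Genes that were lower without being at 0 included *Gnao1*, a G protein alpha subunit of neural and endocrine cells, at 10.8, 13.7 and 12.1 CPM in libraries 1, 2 and 23 and 41.3, 42.1 and 53.6 CPM in libraries 6, 7 and 8. *Rcan1*, an inhibitor of calcineurin, was at 20.6, 20.0 and 21.9 CPM against 88.2, 133 and 68.0 CPM. *Grip2*, a scaffold protein of glutamate receptors, was at 11.1, 8.12 and 4.67 CPM against 44.7, 47.1 and 54.3 CPM. These 3 genes were picked among those whose groups did not overlap. They had log2 fold changes of -1.90, -2.21 and -2.61 with all libraries and adjusted p of 0.178, 0.178 and 0.184 in edgeR's quasi-likelihood test.

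Immediate-early genes, which tissue dissociation induces, were low in all 3 *Hoil1*-/- libraries. Of 20 dissociation and heat shock genes, 13 had a lower level at an unadjusted p under 0.05 without library 23 and 14 with it, against 7.88% and 6.47% of all genes, and none was higher or passed the adjusted threshold (median log2 fold change -2.07 and -1.97). *Egr1*, an immediate-early transcription factor, was at 385, 523 and 1348 CPM in libraries 1, 2 and 23 and at 5401, 6859 and 3836 CPM in libraries 6, 7 and 8. *Fos*, a subunit of AP-1, was at 251, 331 and 606 CPM against 1574, 3818 and 1247 CPM. *Zfp36*, which encodes the mRNA-destabilizing protein tristetraprolin, was at 320, 376 and 483 CPM against 2071, 4646 and 1624 CPM. The groups did not overlap in these 3 genes, and the summed level of the list was 3813, 4897 and 7385 CPM in the *Hoil1*-/- and 18146, 30267 and 14163 CPM in the *Hoil1*+/+ libraries.

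Of 22 NF-κB subunits and targets, 7 were lower and 1, the subunit *Relb*, higher at an unadjusted p under 0.05 without library 23, against 7.88% and 5.26% of all genes, and none passed the adjusted threshold (median log2 fold change -2.07). With library 23 included, 7 of 21 were lower, against 6.47% of all genes, none was higher, and the median was -1.48. *Nfkbiz*, an inducible nuclear regulator of NF-κB, was at 29.5, 38.0 and 124 CPM in libraries 1, 2 and 23 and at 363, 825 and 268 CPM in libraries 6, 7 and 8 (log2 fold change -3.85, SE 0.67, adjusted p = 0.0945 without library 23). The inhibitor *Nfkbia* was at 187, 277 and 259 CPM against 446, 1182 and 389 CPM, and the adhesion molecule *Icam1* at 29.4, 50.6 and 41.6 CPM against 405, 749 and 176 CPM. *Tnfaip3*, the ubiquitin-editing enzyme of the LUBAC list, was at 30.7, 35.4 and 10.0 CPM against 167, 318 and 39.3 CPM. The same libraries had the low immediate-early gene sums, and the part of dissociation in these values was not tested. *Socs3*, an inducible inhibitor of cytokine receptors, was at 38.0, 104 and 290 CPM against 753, 1972 and 765 CPM, and was the only 1 of 11 IL-4 and IL-13 receptor signaling genes with an unadjusted p under 0.05. *Stat6*, the transcription factor of that pathway, was at 116, 87.0 and 81.6 CPM against 115, 129 and 128 CPM.

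No difference was detected in the partners of HOIL1 in LUBAC. *Rnf31*, which encodes HOIP, the catalytic subunit of LUBAC, was at 44.7, 54.1 and 52.3 CPM in the *Hoil1*-/- and 65.6, 76.1 and 37.9 CPM in the *Hoil1*+/+ libraries (log2 fold change -0.28, SE 0.37, adjusted p = 0.746 without library 23). *Sharpin*, the other subunit, was at 41.6, 26.3 and 34.4 CPM against 42.0, 23.5 and 23.1 CPM (log2 fold change 0.21, SE 0.40, adjusted p = 0.843). Of the 21 tested genes of linear ubiquitin signaling, *Rbck1* alone passed the adjusted threshold (median log2 fold change 0.00). *Tnip1* and *Tradd* were higher and *Rbck1* and *Tnfaip3* lower at an unadjusted p under 0.05, against 5.26% and 7.88% of all genes. With library 23 included none passed, and the median was 0.10. At an unadjusted p under 0.05, 2 were then higher and 3 lower, against 2.58% and 6.47% of all genes.

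Among the cytokines that induce type 2 responses, *Il33* was at 6.32, 18.6 and 22.3 CPM against 12.1, 23.2 and 36.9 CPM (log2 fold change -0.95, SE 0.63, adjusted p = 0.476), *Il18* was at 6.96, 11.5 and 2.67 CPM against 0.854, 1.61 and 3.88 CPM (log2 fold change 2.11, SE 0.89, adjusted p = 0.366), and *Tslp* was at 2.93 CPM or lower in every library. None of the 7 tested genes of this list passed the adjusted threshold in edgeR's quasi-likelihood test without library 23. The 2 with an unadjusted p under 0.05, *Il18* and the IL-33 receptor *Il1rl1*, were higher, against 5.26% of all genes. With library 23 included, 0 of 6 had an unadjusted p under 0.05, and the medians of the list were 0.35 and 0.36.

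Of the other cell types in the CD45- fraction, smooth muscle and pericyte genes had lower summed levels in all 3 *Hoil1*-/- libraries, at 659, 2744 and 912 CPM against 4391, 5955 and 6922 CPM. All 13 tested genes had an unadjusted p under 0.05 without library 23 and 8 with it, all lower, against 7.88% and 6.47% of all genes, none passed the adjusted threshold, and the medians were -1.77 and -2.06. *Acta2*, smooth muscle actin, was at 189, 906 and 170 CPM in libraries 1, 2 and 23 and at 1433, 1852 and 2579 CPM in libraries 6, 7 and 8, without overlap. Blood endothelial genes had a median log2 fold change of -1.26 without library 23 and -0.64 with it, and 3 and 0 of 20 were lower at an unadjusted p under 0.05, with summed levels of 3773, 7150 and 13285 CPM in libraries 1, 2 and 23 and 5802, 20538 and 11781 CPM in libraries 6, 7 and 8. Fibroblast genes had medians of -0.93 and 0.16, so their direction turned with library 23. Enteric glia and neuron genes had medians of -5.85 and -0.89, and several of them were at 0 in libraries 1 and 2.

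**Figure D5:**
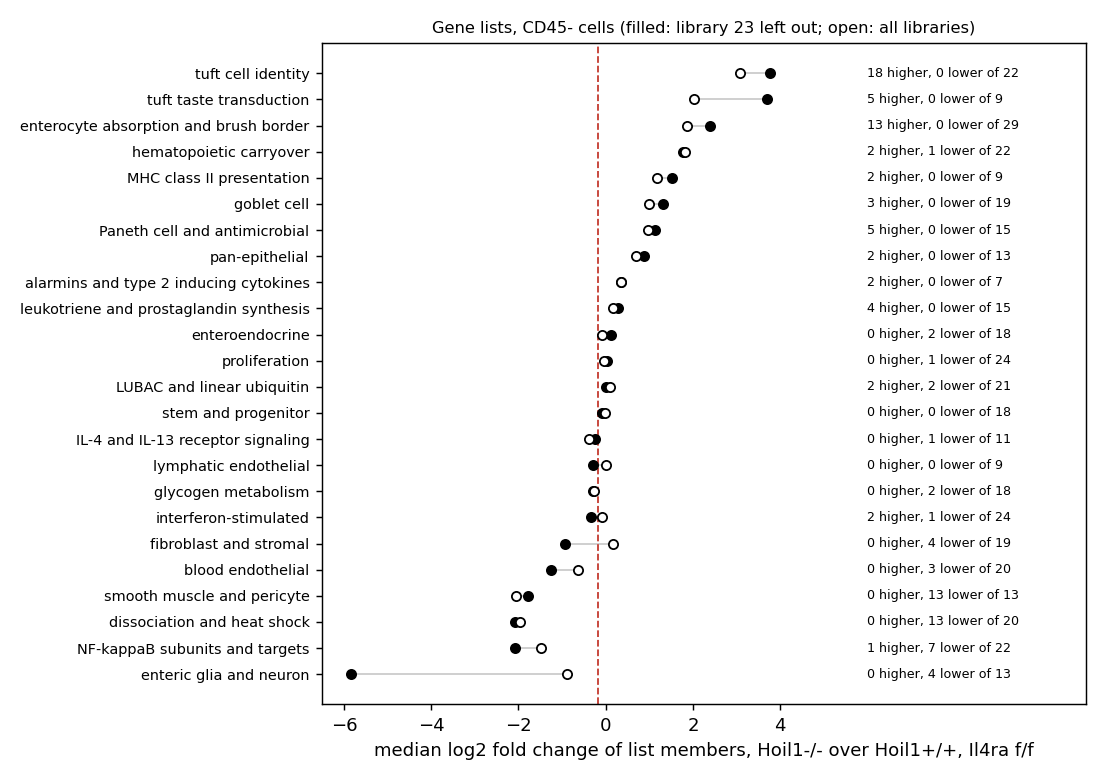
Median log2 fold change, *Hoil1*-/- over *Hoil1*+/+ in CD45- f/f cells (x), of 24 gene lists (y), with filled points for library 23 left out and open points for all libraries, the dashed line at the median of all genes without library 23, and at right the number of members higher and lower at an unadjusted p under 0.05 without library 23. The tuft cell identity list lies at 3.77 and 3.07 and the dissociation list at -2.07 and -1.97.

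A further 4 lists are set against the 5.26% of all genes higher and 7.88% lower at an unadjusted p under 0.05 without library 23. MHC class II genes had a median log2 fold change of 1.53 without library 23, with 2 of 9 genes higher at an unadjusted p under 0.05, and interferon-stimulated genes had a median of -0.33, with 2 of 24 higher and 1 lower. Glycogen metabolism genes, listed because HOIL1 deficiency in people leads to deposits of abnormal glycogen, had a median of -0.30, with 2 of 18 lower. Lymphatic endothelial genes had a median of -0.30, with none of 9 past an unadjusted p of 0.05. With library 23 included, the medians of the MHC class II, interferon, glycogen and lymphatic lists were 1.18, -0.10, -0.26 and 0.01. No member of these 4 lists passed the adjusted threshold in edgeR's quasi-likelihood test.

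Whether the *Hoil1* effect in f/f cells differed from that in cells of Vil1cre mice was tested directly. No gene passed the adjusted threshold for the difference of the 2 effects, with 11 or 12 libraries, by edgeR's quasi-likelihood test, whereas 1553 genes (9.44%) had a positive and 1856 (11.3%) a negative difference of log2 fold changes (f/f minus Vil1cre) at an unadjusted p under 0.05 with 11 libraries, as had 6.7% and 7.32% of genes with 12, and DESeq2 called 1572. *Trpm5* had the smallest adjusted p of the genes named, at 0.0791, with a difference of log2 fold changes of 4.64 (SE 0.56). In the Vil1cre mice *Trpm5* was at 14.4, 7.18 and 14.7 CPM in *Hoil1*-/- and 17.2, 10.7 and 9.84 CPM in *Hoil1*+/+ libraries, so the 2 genotypes overlapped there. *Lrmp* had a difference of 5.25 (SE 0.74, adjusted p = 0.103) and *Avil* of 3.71 (SE 0.70, adjusted p = 0.106). *Pla2g4c* had a difference of 6.14 (SE 1.46, adjusted p = 0.121), with 6.78, 1.53 and 8.42 CPM in *Hoil1*-/- and 3.14, 0.441 and 0.464 CPM in *Hoil1*+/+ libraries of Vil1cre mice. The epithelial content ran the other way in those mice, with pan-epithelial sums of 4347, 2027 and 10436 CPM in *Hoil1*-/- and 16286, 14869 and 4806 CPM in *Hoil1*+/+ libraries, and its part in the difference was not tested. Sex also varied there, with *Xist* at 239, 164 and 261 CPM in libraries 4, 9 and 10 and no count in libraries 3, 5 and 11. With *Xist* as a covariate, the number of genes past the threshold for the difference stayed 0. Since no gene passed, none of these genes is shown to respond to *Hoil1* differently when epithelial *Il4ra* is intact.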

How the data were processed

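RNA-Seq of sorted CD45- ileum cells was analysed from the authors' table of 39056 genes in 24 libraries. After trimming, the authors used STAR for alignment to mm10 (GRCm38) and featureCounts for counting on genes, and deposited raw counts without normalization. The versions and counting options are not given in the sources used here. Names and positions of 38872 genes came from GENCODE M21. The counts were tested in R 4.3.3 with edgeR 4.0.16: TMM scaling, genes kept by its filter (minimum count 10, minimum total 15), a mean for each of 4 genotypes, quasi-likelihood test, Benjamini-Hochberg adjustment, threshold 0.05, two-sided. CPM were scaled over the 12 CD45- libraries. The fits were tested on simulated data. Alternatives were edgeR's likelihood ratio and exact tests, DESeq2 1.42.0, other library sizes, no filter, covariates and fewer libraries. Replicates are labeled as separate samples, and p-values measure the spread between them. Floors of 3 counts cover counting error only.

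The genes named were the genotype and sort checks, genes past the threshold, the 10 genes of each direction with the smallest p without library 23 and, among genes whose f/f groups do not overlap, with it, the 4 most abundant members of each of 25 lists, and the members of the tuft cell, taste and eicosanoid lists, of which 1 is not reported here by name but is in the counts. Others were chosen after their values were seen. The members and lists were chosen with earlier results of these data known.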

Additional observations from a re-analysis of the deposited data

How the results depend on the processing

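Of the 6 genes called without library 23, the count was 6 with RLE size factors, 11 without a filter, 3 with *Xist* and 14 with the blood endothelial list as a covariate, 0 with pan-epithelial library sizes, with only the f/f libraries and with the number of genes detected as a covariate (the last chosen after seeing the data), 350 with edgeR's likelihood ratio test, 548 with its exactTest and 652 with DESeq2, and 0 to 474 when 1 f/f library was left out. All 5 higher genes were among the genes called higher by the likelihood ratio test, the exactTest and DESeq2. With all libraries the count was 0, and it was 7 with the blood endothelial covariate, 205 with exactTest, 221 with the likelihood ratio test, 332 with DESeq2 and 0 to 90 when 1 library was left out. For the difference between f/f and Vil1cre mice it was 0, and it was 1 without a filter, 1223 with the likelihood ratio test, 1572 with DESeq2 and 0 to 723 when 1 f/f library was left out. The cause of these changes was not tested. Of 974 log2 fold changes under an alternative, 1 changed sign, *Galk1* at -0.42 with pan-epithelial library sizes. These covered only named genes past the threshold or picked by smallest p, not the other list members. Each also had an unadjusted p under 0.05 in the main quasi-likelihood fit. Their signs were thus largely fixed by the choice and are no evidence of stability. No paired analysis was possible because the replicate numbers only name the libraries. The depth of 7.44 M counts in library 23 and the fewer genes in all *Hoil1*-/- f/f libraries limit what their zeros can show.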
